A study of Mus musculus with 58 samples.

Results

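The genes described here are 10 epithelial genes of the lung: the surfactant proteins Sftpa1, Sftpb, Sftpc and Sftpd, the lamellar body and surfactant lipid genes Abca3, Lamp3 and Lpcat1, the airway secretoglobins Scgb1a1 and Scgb3a2, and the ciliated cell transcription factor Foxj1. They were chosen by name, and their probes were found by matching the transcript accession of each array probe to its RefSeq symbol. Of the 10 genes, 9 were matched, by 11 of the 55681 probes of the array. Scgb3a2 was not analysed here. Where a gene had more than 1 probe (Sftpb and Sftpd), its value is that of the probe with the higher mean Cy5 signal in lung.

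Adult male Muta™Mouse, a strain that carries a lacZ transgene for mutation assays, were about 10 weeks old. They were gavaged daily for 28 days with BaA, the tobacco smoke and combustion product benz(a)anthracene, dissolved in olive oil. The control mice, called D0, received olive oil alone (0 mg/kg-bw/day). The exposed groups received 20 (D1), 40 (D2) or 80 mg/kg-bw/day (D3), and tissue was taken 72 h after the last dose. Lung RNA of 5 mice per group was measured on 20 arrays, liver RNA on 19 arrays (4 at D3, 5 in the other groups) and forestomach RNA on 19 arrays (4 at D0, 5 in the other groups), with the same mouse number in each tissue marking the same animal. Each array was a 2-colour Agilent mouse array with tissue RNA in Cy5 and a reference RNA pooled from mouse cell lines in Cy3, without dye swap, and values are log2 ratios of Cy5 over Cy3 after loess normalization within the array. RNA came from slices cut at random from frozen tissue, so that cell types could enter in varying amounts.

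Surfactant is the film of phospholipid and protein that lowers surface tension in the alveoli. Alveolar type 2 cells assemble it in lamellar bodies, where ABCA3 imports phospholipid, LPCAT1 is among the enzymes that make that lipid, and LAMP3 (DC-LAMP) lies in the membrane; SFTPB and SFTPC are the small hydrophobic proteins of the film, while SFTPA1 and SFTPD are collectins that bind microbes. In the conducting airways, club cells secrete SCGB1A1 (also called CC10), and FOXJ1 drives the formation of motile cilia. In whole tissue, fewer cells of a type and less RNA per cell cannot be told apart.

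The labelled tissues carried their markers, although many markers were detected in the other tissues too. Of 12 alveolar type 2 markers other than the genes above, 12 were well above background on at least 10 of the 20 lung arrays. On most liver and forestomach arrays 4 and 8 of them were. Alveolar type 1 markers with a probe were so for 8 of 8 in lung, 5 in liver and 7 in forestomach. Hepatocyte markers were so for 6 of 6 in liver, 5 in forestomach and 2 in lung. Squamous epithelium markers were so for 6 of 6 in forestomach, 3 in lung and 2 in liver. Between 42.8% and 53.8% of probes were well above background on the lung arrays, and the lowest shares lay on slide 1 of the 3 lung slides (42.8% to 48.1%, against at least 51.5% on the other 2). The 7 lung arrays of slide 1 stood apart at the brightest of these genes: log2 Cy5 signals of Sftpc were 17.80 to 18.21 there and 18.46 to 18.68 on the other slides, while its log2 Cy3 signals were 12.52 to 13.13 there and 11.33 to 11.94 elsewhere. D0 and D3 had the same split over the slides (2, 1 and 2 arrays), so the D3 comparison was balanced for slide.

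In lung, all 11 probes were well above background in Cy5 on 20 of 20 arrays and none was saturated. Sftpc and Scgb1a1 were among the brightest, with log2 Cy5 signals of 17.80 to 18.68 and 17.99 to 18.79. In D0 liver, Sftpa1, Sftpb, Sftpc, Scgb1a1 and Lpcat1 were not well above background on any of the 5 arrays. On the normalised Cy5 scale, D0 lung exceeded D0 liver at least 7102-fold for Sftpc, at least 7654-fold for Scgb1a1, at least 1236-fold for Sftpb, at least 1081-fold for Sftpa1 and at least 12.3-fold for Lpcat1. These are bounds on that scale only, against the lowest signal well above background on each array or the probe's own signal, whichever was higher. For Lpcat1 it was the probe's own signal. The scale depends on the loess fit, which uses both channels. Before normalization the mean log2 Cy5 in D0 lung and D0 liver was 18.30 and 6.23 for Sftpc, and 18.44 and 6.26 for Scgb1a1. On the normalised scale, used for all folds here, the D0 lung means were 18.96 and 19.07. Sftpd, which was well above background on all 5 D0 liver arrays, was 698-fold higher in lung. The second, dimmer probes gave smaller folds over D0 liver: 259-fold for Sftpd, well above background on 4 of the 5 arrays, and at least 102-fold for Sftpb. Abca3 and Lamp3 were measured in every tissue and were 4.75-fold and 9.64-fold higher in D0 lung than in D0 liver, and 6.11-fold and 10.5-fold higher than in D0 forestomach. These levels are a description and were not tested.

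The reference channel of several of these probes differed between tissues although the same kind of reference RNA was on every array. At the Sftpc probe the log2 Cy3 signal was 11.33 to 13.13 on the 20 lung arrays but 5.13 to 5.74 on the liver arrays, where it was at background. Cy3 at the probes of Sftpa1, Sftpb and Sftpc was well above background on 20 of 20 lung arrays and on 0 of the 38 others. At Scgb1a1 the log2 Cy3 signal was 10.33 to 12.10 in lung, 6.60 to 7.67 in forestomach and 5.48 to 5.88 in liver. In lung, Cy3 was 0.666% to 3.94% of Cy5 at the Sftpc probe and 0.297% to 1.68% at the Scgb1a1 probe. Thus, between tissues, the denominator of the log2 ratio was higher where Cy5 was higher: D0 lung exceeded D0 liver by 7.39 for Sftpc in log2 ratio but by 13.03 in normalised log2 Cy5. Between the lung slides the order was reversed at Sftpc and Scgb1a1, with lower Cy5 and higher Cy3 on slide 1 than on the others. The part of these Cy3 differences in the dose comparisons was not tested, and Cy5 values without the reference are given beside them.

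**Figure D1:**
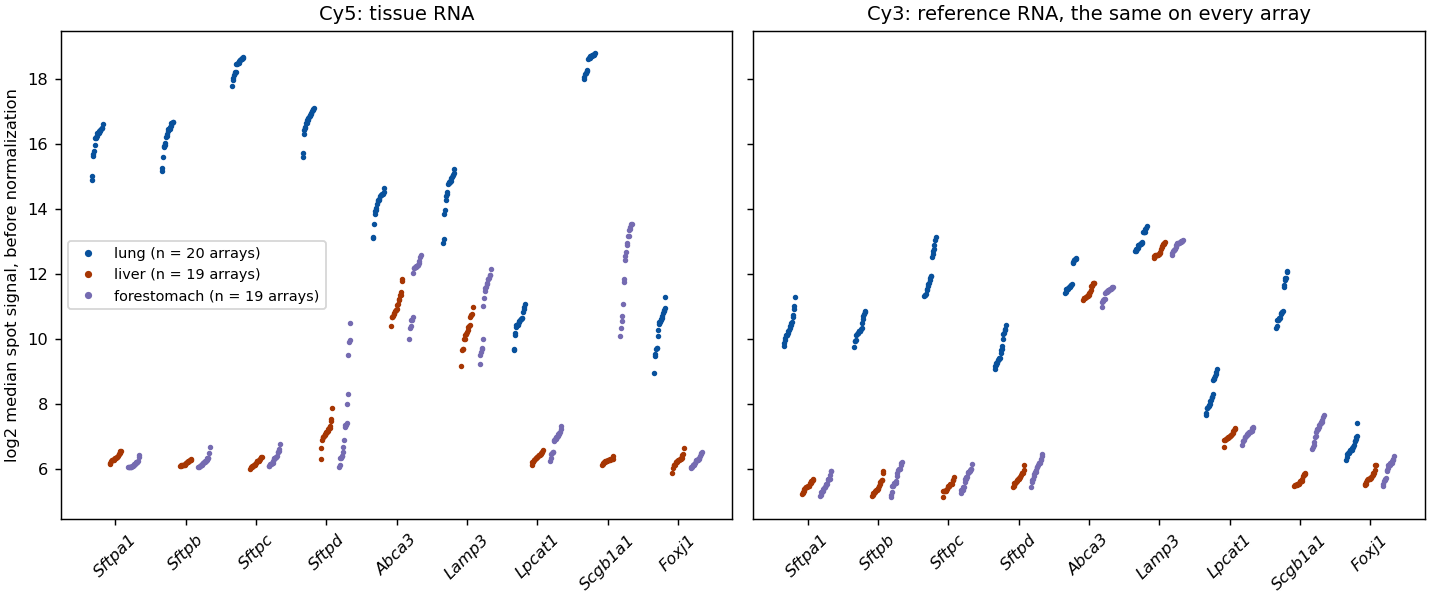
Log2 median spot signal before normalization at the 9 genes in Cy5 (tissue RNA, left) and Cy3 (reference RNA, right), 1 point per array, for 20 lung, 19 liver and 19 forestomach arrays. Sftpa1, Sftpb, Sftpc and Sftpd are bright in Cy5 on lung arrays, Scgb1a1 is bright in lung and intermediate in forestomach, and the Cy3 signals of these genes are also highest on the lung arrays.

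The first question was whether BaA changed these genes in lung. With limma on all 30381 probes well above background on at least 4 lung arrays, and the criteria of an adjusted p of at most 0.05 and a change of at least 1.5-fold, 0 of 9 genes passed at D1 (0% of all probes passed), 0 of 9 at D2 (0.553% of all probes) and 0 of 9 at D3 (1.88%). The dose slope, judged on the adjusted p alone, passed for 0 of 9 genes, against 11.6% of all probes. At an unadjusted p under 0.05 the count was also 0 of 9 at each dose and for the slope, and the second probes of Sftpb and Sftpd did not pass either. The median log2 change of the 9 genes was -0.08 at D1, -0.03 at D2 and 0.02 at D3, beside 0.00 over all probes at each dose.

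**Figure D2:**
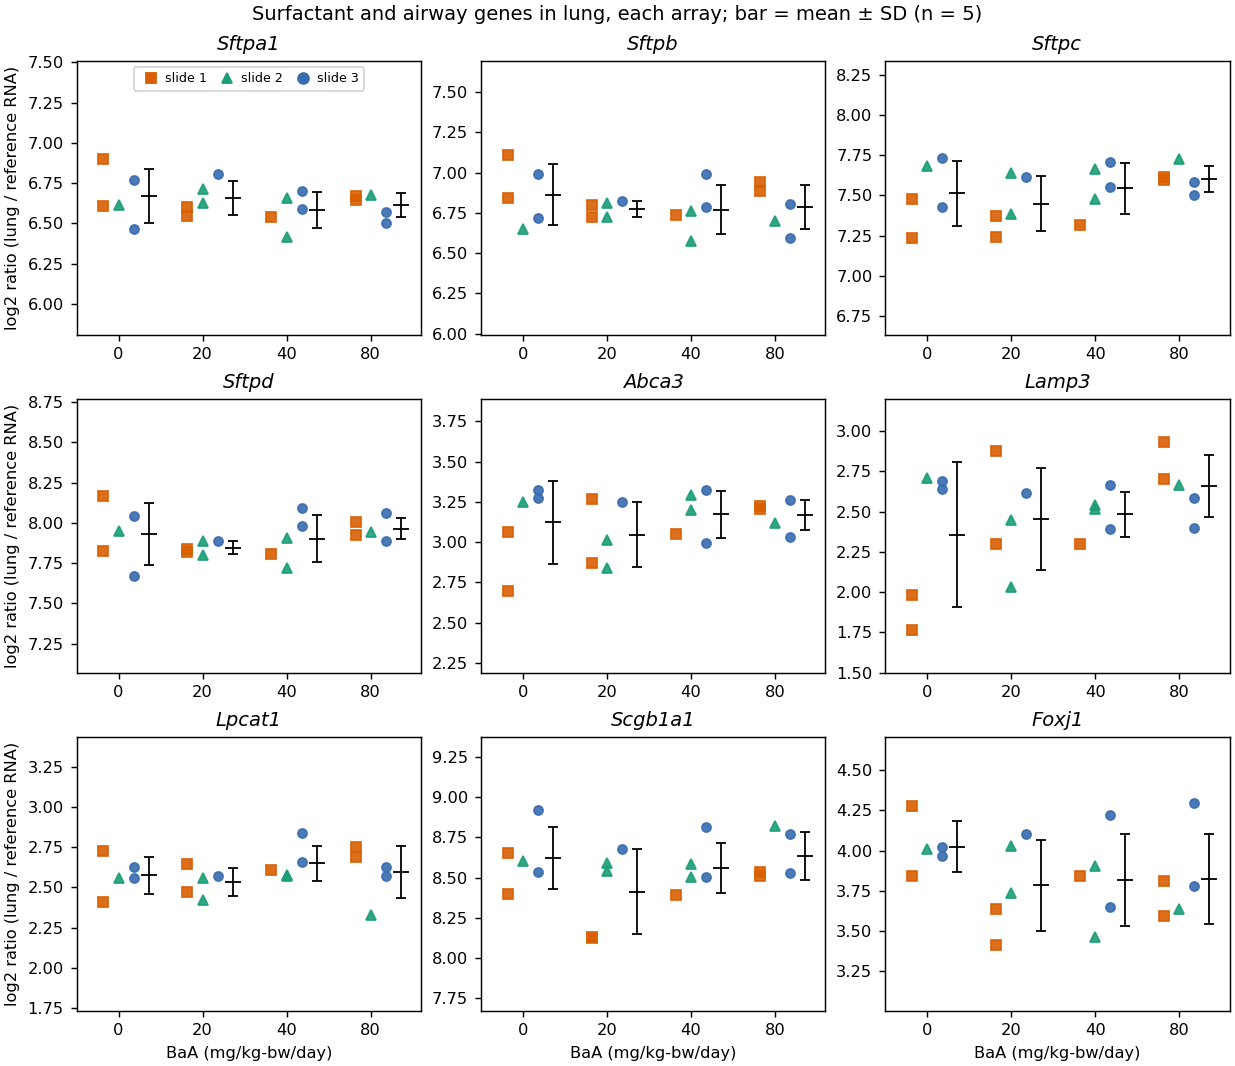
Log2 ratio of lung over reference RNA for the 9 genes on each of the 20 lung arrays, by BaA dose in mg/kg-bw/day; symbols mark the 3 slides, and the bar gives the mean and SD of the 5 mice of a group. At the 1 probe shown per gene the groups overlap, and the 2 low D0 points of Lamp3 both lie on slide 1.

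Of the surfactant proteins, Sftpc, a product of alveolar type 2 cells, had log2 ratios of 7.43, 7.73, 7.68, 7.48 and 7.24 in the 5 D0 mice. The 5 D3 mice gave 7.58, 7.50, 7.59, 7.73 and 7.61, all within the range of the controls. The change at D3 was 0.09 (SE 0.10; 95% interval -0.12 to 0.30; limma adjusted p = 0.636). Sftpb, without which the film does not form, was 6.86 ± 0.19 (SD, n = 5) at D0, 6.78 ± 0.05 at D1, 6.77 ± 0.15 at D2 and 6.79 ± 0.14 at D3, and its change at D3 was -0.08 (interval -0.27 to 0.11; adjusted p = 0.666 in limma). Its second, dimmer probe gave -0.06 at D3 (interval -0.18 to 0.07) and -0.12 at D1 (interval -0.25 to 0.01; limma adjusted p = 0.696). At that probe all 5 D1 mice lay below the lowest control. The share of all probes with such separation was not counted.

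The collectins were as even across doses. Sftpa1 was 6.67 ± 0.17 (SD, n = 5) at D0 and 6.66 ± 0.10, 6.58 ± 0.11 and 6.61 ± 0.08 at D1, D2 and D3, with a D3 change of -0.06 (interval -0.23 to 0.11; limma adjusted p = 0.712). Sftpd was 7.93 ± 0.19 at D0 and 7.85 ± 0.04, 7.90 ± 0.15 and 7.97 ± 0.07 in the dosed groups, with a D3 change of 0.03 (interval -0.14 to 0.21; adjusted p = 0.849 in limma). The second Sftpd probe gave -0.08 at D3, of the opposite sign and with an interval of -0.27 to 0.11. For both collectins the spread between control mice was wider than any difference between group means.

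Among the lamellar body genes, Lamp3 varied most between mice. Its log2 ratios were 2.64, 2.69, 2.71, 1.98 and 1.76 in the D0 mice 1 to 5. They were 2.62, 2.30, 2.03, 2.45 and 2.88 at D1, 2.67, 2.39, 2.54, 2.51 and 2.30 at D2, and 2.40, 2.58, 2.70, 2.67 and 2.94 at D3. Only D0 mice 4 and 5 lay below 2, and both were hybridised on slide 1. The change at D3 was 0.30 (1.23-fold; SE 0.18; interval -0.07 to 0.67; limma adjusted p = 0.318), the largest of the 9 genes in size at that dose. Within slide 1 the D3 mice exceeded the D0 mice by 0.95 (2 against 2), whereas the difference was -0.04 on slide 2 (1 against 1) and -0.17 on slide 3 (2 against 2). Without slide 1 the change was -0.13 (SE 0.13), of the opposite sign.

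Abca3 followed a like pattern at smaller size. D0 mice 4 and 5 had log2 ratios of 3.07 and 2.70, below the 3.25 to 3.32 of the other 3 controls. The group values were 3.12 ± 0.26 (SD, n = 5) at D0, 3.05 ± 0.20 at D1, 3.17 ± 0.15 at D2 and 3.17 ± 0.09 at D3, and the D3 change was 0.05 (interval -0.19 to 0.28; limma adjusted p = 0.85). Lpcat1, the lipid enzyme, was 2.57 ± 0.12 at D0 and 2.59 ± 0.16 at D3, a change of 0.02 (interval -0.15 to 0.19; adjusted p = 0.916 in limma). Its highest values, 2.84 in a D2 mouse and 2.75 in a D3 mouse, lay above the highest control (2.72), and the other dosed mice did not.

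Scgb1a1, the club cell secretoglobin, had log2 ratios of 8.53, 8.92, 8.61, 8.65 and 8.40 at D0 and 8.77, 8.53, 8.51, 8.82 and 8.54 at D3. Its lowest values were in D1 mice 7 and 10, at 8.13 each, both on slide 1; the other 3 D1 mice gave 8.54 to 8.68. The changes were -0.21 at D1 (interval -0.46 to 0.04), -0.06 at D2 (interval -0.31 to 0.19) and 0.01 at D3 (interval -0.24 to 0.26), with limma adjusted p-values of 0.74, 0.849 and 0.966. The Scgb1a1 probe was printed in 10 spots per array, which were averaged.

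Foxj1, the factor of the ciliated cells, was lower on average in all 3 dosed groups, but no change passed. Its log2 ratios were 3.97, 4.02, 4.01, 4.28 and 3.84 at D0. They were 4.10, 3.42, 4.03, 3.74 and 3.64 at D1, 4.22, 3.65, 3.91, 3.46 and 3.84 at D2, and 4.29, 3.78, 3.81, 3.63 and 3.59 at D3. The highest of all 20 values was in a D3 mouse. Below the lowest control lay 3 of 5 mice at D1, 3 of 5 at D2 and 4 of 5 at D3. The share of all probes with such values was not counted. The changes were -0.24 (SE 0.15), -0.21 and -0.20 at D1, D2 and D3, with limma adjusted p-values of 0.773, 0.551 and 0.466 and a D3 interval of -0.52 to 0.12.

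The intervals set how large a change of the log2 ratio could have gone unseen. They do not bound the change of the RNA itself, since the reference channel also varied at these probes. At D3 the 95% intervals of 8 of 9 genes lay within 1.5-fold in either direction, a property of 83.1% of all probes. The exception was Lamp3, whose upper limit was 1.59-fold. With the Cy5 channel alone, quantile normalised, 7 of 9 intervals lay within 1.5-fold at D3, the exceptions being Lamp3 (0.33, interval -0.0043 to 0.65) and Foxj1 (-0.23, interval -0.68 to 0.22). On that scale Scgb1a1, the brightest probe or nearly so on every array, is held almost fixed by the normalization. Sftpc, also among the brightest, had an SE of 0.05 there against 0.10 as a ratio. The Cy5 intervals of Scgb1a1 and Sftpc therefore do not bound their RNA change. With Cy5 divided instead by each array's 75th percentile and slide as a block, a setting chosen after the values were seen, Sftpc changed by -0.22 (SE 0.07; limma adjusted p = 0.0263) and Scgb1a1 by -0.23 (SE 0.07; adjusted p = 0.0325, limma) at D3. Both were under 1.5-fold, the sign was opposite to that of the ratios, and the median of all probes moved by -0.07 on that scale. The dose slope of Sftpc passed there (limma adjusted p = 0.0244), as did 21.5% of all probes.

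**Figure D3:**
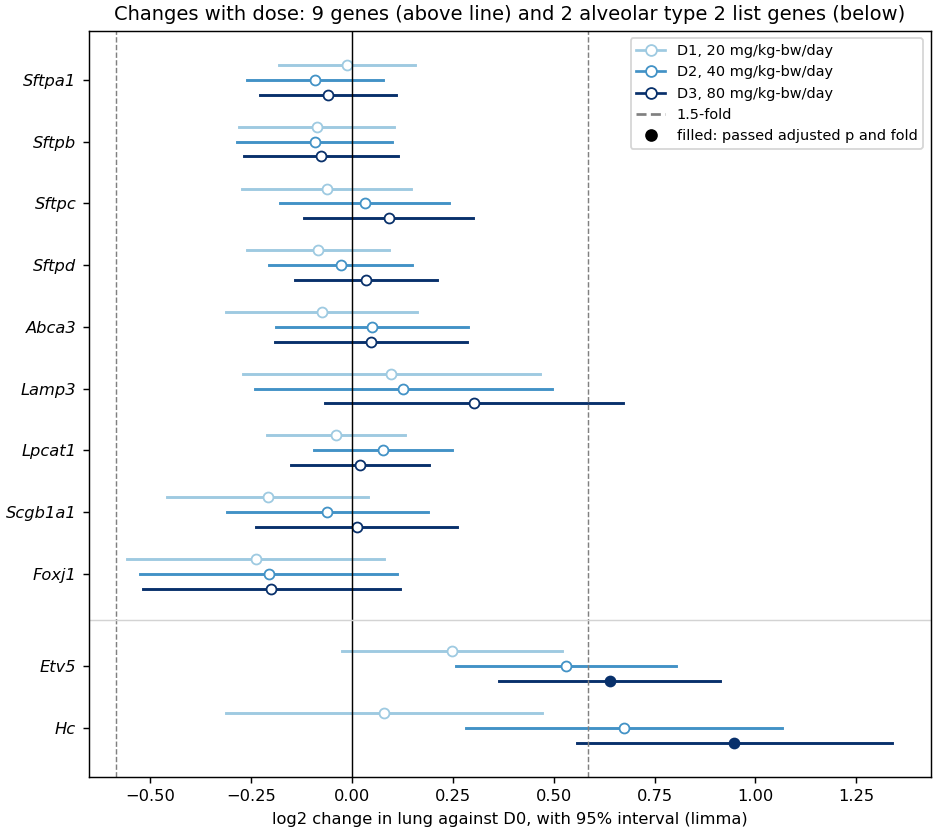
Log2 change in lung against D0 with its 95% interval from limma (x axis) for the 9 genes and, below the line, Etv5 and Hc, at D1, D2 and D3 (n = 5 per group); dashed lines mark 1.5-fold, and filled points passed both criteria. The intervals of the 9 genes all span 0, while the D3 points of Etv5 (0.64) and Hc (0.95) are filled.

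Other genes of the same cells were examined through lists. Of 16 genes for surfactant regulation and lipid synthesis, 0 passed at D1, D2 or D3. The slope passed for 1 upward and 1 downward, where 11.6% of all lung probes passed. Elovl1, a fatty acid elongase, had changes of 0.18, 0.28 and 0.45 at D1, D2 and D3 (limma adjusted p = 0.044 at D3 and 0.0279 for the slope); its dimmer probe gave 0.61 at D3 and passed both criteria (adjusted p = 0.0332, limma). Foxa1, a forkhead factor of airway and alveolar epithelium, had log2 ratios of 4.07 to 4.20 at D0 and 3.50 to 4.05 at D1. They were 3.62 to 4.06 at D2 and 3.43 to 3.99 at D3, so that every dosed mouse lay below every control. The share of all probes with such separation was not counted. Foxa1 fell with dose in the slope (limma adjusted p = 0.0488), by 0.41 at D3 (adjusted p = 0.0274 in limma, under 1.5-fold). Elovl1 and Foxa1 were not followed under the alternative processing described below. Nkx2-1, the homeodomain factor that switches on the surfactant genes, gave 0.10 at D3 (adjusted p = 0.513 in limma), and Csf2rb, a receptor chain for GM-CSF, gave 0.48 (adjusted p = 0.101, limma).

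Of the 12 alveolar type 2 markers, 2 rose at D3 and in the slope and none fell, where 1.88% and 11.6% of all probes passed. Their median change at D3 was 0.18. Etv5, an ETS factor needed to maintain alveolar type 2 cells, had log2 ratios of 1.79 to 2.58 at D0, 2.30 to 2.96 at D1, 2.65 to 2.88 at D2 and 2.75 to 3.12 at D3, so that D2 and D3 lay above every control. Its change was 0.64 at D3 (1.56-fold; SE 0.13; limma adjusted p = 0.00479) and 0.53 at D2, which was under 1.5-fold. The Etv5 change at D3 was under 1.5-fold without slide 1 (0.37; adjusted p = 0.0233, limma) and in Cy5 alone, quantile normalised (0.57; adjusted p = 0.0131, limma). Hc, which encodes complement C5, was 5.03 to 5.82 at D0 and 5.93 to 6.88 at D3, without overlap, a change of 0.95 (1.93-fold; SE 0.19; adjusted p = 0.00379 in limma). The share of all probes with groups as separate as those of Etv5 and Hc was not counted. Whether the changes of Etv5 and Hc differ from those of the surfactant proteins was not tested.

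Of 11 club cell markers, 0 passed at any dose or in the slope; the largest D3 changes were -1.10 for Bpifa1 (limma adjusted p = 0.607) and -0.39 for Gabrp (adjusted p = 0.352). Cyp2f2 and Cbr2, enzymes abundant in club cells, gave -0.03 and 0.12. The median change of the club cell list was -0.13, -0.35 and -0.06 at D1, D2 and D3, with 3 of 11 genes above 0 at D3. Of 14 ciliated cell markers tested, 1 rose at D3, where 1.88% of all probes passed. It was Ccdc39, which sets the spacing of axonemal dyneins, by 0.60 (1.51-fold; limma adjusted p = 0.0154). Ccdc39 was close to background, with a mean log2 Cy5 of 7.10 and 18 of 20 arrays well above it, and it no longer passed under 9 alternatives, 3 of which left out 1 mouse. Tmem212 had the next largest change of that list, -0.22 (adjusted p = 0.598 in limma). The median change of the ciliated list at D3 was -0.05, with 5 of 14 genes above 0.

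Markers of other cells in the slices were measured beside these. Of the B cell markers, 4 of 6 rose and passed at D2 and 2 of 6 at D3, where 0.553% and 1.88% of all probes passed. Among them Cd79b rose by 1.10 and 0.80 at D2 and D3, and Ms4a1 by 0.86 and Cd79a by 0.64 at D2 (limma). At D3 Ms4a1 and Cd79a gave 0.37 and 0.27 and did not pass (limma adjusted p = 0.218 and 0.313). The D2 call of Cd79a was lost under 6 of 12 alternatives and in 6 of 20 runs that left out 1 mouse. That of Ms4a1 was lost under 3 of 12 alternatives. None of the markers of alveolar type 1, basal, endothelial, fibroblast, smooth muscle, alveolar macrophage, T, fat, heart muscle, red blood, hepatocyte or squamous cells passed at any dose. The largest D3 changes in these lists, 2 for each list except the red blood cell list with 1, were Emp2 0.20 and Gprc5a 0.14, Krt14 -0.54 and Krt5 0.26, Tek 0.42 and Pecam1 0.32, Dcn -0.90 and Lum -0.69, Des -0.37 and Acta2 0.30, Marco 0.45 and Siglecf 0.43, Cd8a 0.69 and Cd3d 0.61, Adipoq -0.18 and Cfd -0.13, Myl7 -0.58 and Myh6 -0.30, Alas2 -0.25, Serpina1c 1.04 and Alb -0.13, and Krt13 -0.77 and Sprr1a -0.51, in that order of lists. None of these passed, the smallest limma adjusted p among them being 0.116 for Cd3d. Single lung arrays stood apart in some of these lists, scored as the mean log2 ratio of the list's genes after each gene's lung mean was subtracted. The 3 squamous genes reached 4.19 on a D0 array (group median -0.24) and 2.11 on a D3 array (-0.30), the basal list 2.31 on a D0 array (-0.20), and the fat list 3.74 on a D2 array (0.27). The part of these cells in the values of the surfactant and airway genes was not tested.

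Over the 20 lung arrays some of the genes varied together, given here as a description. Sftpa1 and Sftpb had a Pearson r of 0.78, Sftpb and Sftpd 0.72, and Sftpa1 and Sftpd 0.70. Abca3 and Lamp3 had an r of 0.79 with each other but 0.03 and -0.13 with Sftpa1. Sftpc had r of 0.64 to Abca3, 0.58 to Lamp3 and 0.42 to Sftpa1, and its highest r was with Scgb1a1 at 0.78. Scgb1a1 and Foxj1, of different airway cells, had an r of 0.60. After the means of dose group and slide were removed, the r of Sftpa1 with Sftpb was 0.87 and that of Abca3 with Lamp3 0.82, but other pairs moved. Sftpc then had r of 0.75 with Sftpa1, 0.70 with Sftpb (0.20 before) and 0.68 with Sftpd, above its 0.62 with Scgb1a1. Scgb1a1 likewise had r of 0.79 with Sftpa1 (0.42 before) and 0.81 with Sftpb (0.30 before), so which genes varied together depended on whether dose and slide were removed. The arrays share the reference RNA and the slides, and the 2 probes of Sftpb had an r of only 0.37 with each other, those of Sftpd 0.50.

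**Figure D4:**
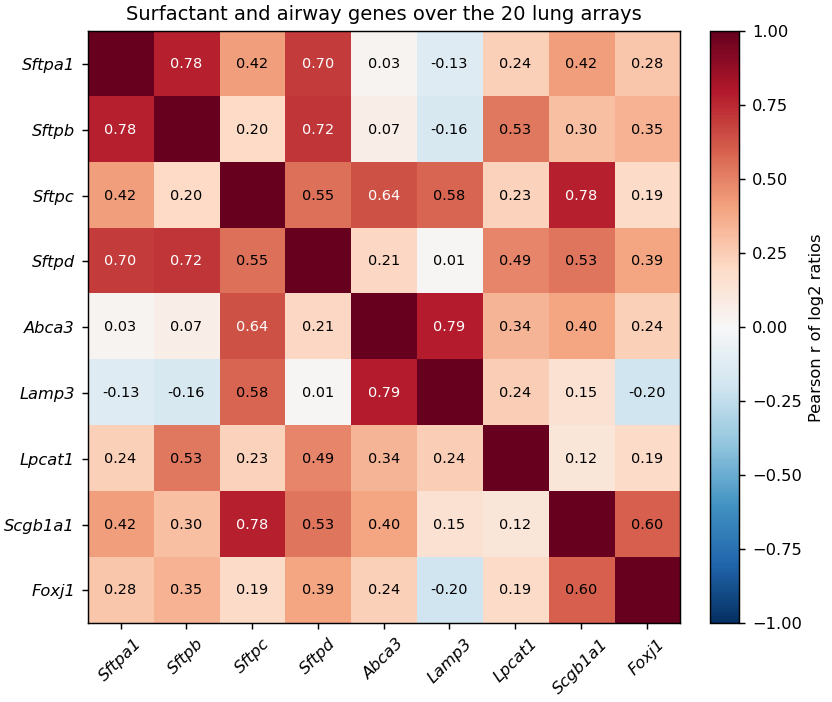
Pearson r of log2 ratios between the 9 genes over the 20 lung arrays; both axes list the genes, colour and number give r. Sftpa1, Sftpb and Sftpd form a block of high r (0.70 to 0.78), and Abca3 with Lamp3 another (0.79), with dose and slide means not removed.

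RefSeq promoters were given for 5 of the 10 genes (GRCm38.p6). The 250 bases before the transcript start are printed for Sftpa1 and Sftpb and for Abca3 and Lamp3, the pairs with high r both before and after dose and slide were removed, 5′ to 3′ on the gene's strand, with matches on either strand in capitals: CTCAAG, part of the sequence that NKX2-1 binds, TGTTTAC, a forkhead core, CCGGAA, an ETS core, and TATAAA, the TATA box.
Sftpa1, chr14:41131538-41131787, plus strand: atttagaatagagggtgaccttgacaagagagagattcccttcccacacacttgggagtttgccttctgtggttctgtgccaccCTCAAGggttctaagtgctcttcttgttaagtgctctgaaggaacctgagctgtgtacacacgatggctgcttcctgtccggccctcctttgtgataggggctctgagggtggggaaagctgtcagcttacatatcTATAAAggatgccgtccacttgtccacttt
Sftpb, chr6:72304360-72304609, plus strand: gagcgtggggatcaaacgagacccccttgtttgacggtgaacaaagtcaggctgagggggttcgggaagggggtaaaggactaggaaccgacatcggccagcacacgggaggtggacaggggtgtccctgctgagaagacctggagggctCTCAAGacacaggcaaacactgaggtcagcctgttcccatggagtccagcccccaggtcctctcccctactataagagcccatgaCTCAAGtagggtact
Abca3, chr17:24351773-24352022, plus strand: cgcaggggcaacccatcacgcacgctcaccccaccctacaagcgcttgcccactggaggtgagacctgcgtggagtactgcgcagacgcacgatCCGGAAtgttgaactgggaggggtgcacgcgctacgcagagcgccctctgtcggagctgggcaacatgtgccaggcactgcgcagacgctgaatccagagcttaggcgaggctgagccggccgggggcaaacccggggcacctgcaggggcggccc
Lamp3, chr16:19706366-19706615, minus strand: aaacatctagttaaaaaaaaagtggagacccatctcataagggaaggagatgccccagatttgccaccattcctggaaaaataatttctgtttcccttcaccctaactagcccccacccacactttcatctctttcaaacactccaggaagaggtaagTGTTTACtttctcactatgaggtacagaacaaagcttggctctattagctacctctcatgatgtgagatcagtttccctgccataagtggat

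The Sftpb window held CTCAAG 2 times and the Sftpa1 window 1 time, while those of Abca3 and Lamp3 held none; 13.3% of the 32851 promoter windows of this length in the table held it. Abca3 held CCGGAA, as did 12% of all windows, Lamp3 held TGTTTAC (3.17%), and Sftpa1 held TATAAA (12.4%). Such matches describe letters in these windows and were not tested against the expression values.

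The genes most like Sftpc over the 20 lung arrays, by Pearson r among all tested probes with a symbol, were Hba-a2 (0.78), Hba-a1 (0.78), Scgb1a1 (0.78), Slco4c1 (0.78) and Cd99l2 (0.76). The first 2 are globin genes of red blood cells, and their mean log2 Cy5 signals, 18.37 and 18.02, were as high as those of Sftpc and Scgb1a1 (18.39 and 18.52). Most like Scgb1a1 were Hp (0.87), Cd99l2 (0.84), Clic3 (0.84), Sfta2 (0.84) and Drc3 (0.83). Those most like Foxj1 were Ldhb (0.91), Spaca9 (0.86), 0610040J01Rik (0.86), Cldn7 (0.84) and Hoatz (0.84). These genes were ranked with dose and slide means not removed. After removal, in the same order, the r with Sftpc were 0.89, 0.66, 0.62, 0.76 and 0.59. Those with Scgb1a1 were then 0.84, 0.73, 0.81, 0.79 and 0.65, and those with Foxj1 0.94, 0.90, 0.92, 0.83 and 0.92.

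In liver, 3 of the 9 genes passed the filter. Of these 0 of 3 passed the criteria at D1 (0.241% of all 22786 probes passed), at D2 (0.597%), at D3 (0.434%) and in the slope (0.658%). The collectin Sftpd had log2 ratios of 1.32 to 1.65 at D0, 1.20 to 2.31 at D1, 0.28 to 1.31 at D2 and 1.39 to 2.12 at D3. Its change was -0.56 at D2 (SE 0.21; limma adjusted p = 0.245), where its second probe gave -0.16, and 0.29 at D3 (adjusted p = 0.588, limma). Abca3 changed by -0.18 (interval -0.40 to 0.04) and Lamp3 by -0.02 (interval -0.32 to 0.29) at D3.

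In forestomach, 5 of the 9 genes passed the filter. Of these 0 of 5 passed the criteria at D1 (0% of 32313 probes), at D2 (0.0124%), at D3 (0.0248%) and in the slope (0.0248%). Scgb1a1 exceeded background on all 19 arrays, with log2 ratios between 4.65 and 5.96, although its D0 level was 101-fold below that of lung on the normalised Cy5 scale. Its change at D3 was 0.09 (interval -0.48 to 0.67; limma adjusted p = 1). The club cell enzymes Cyp2f2, Cbr2 and Aldh1a1 were also well above background on 19 of 19 forestomach arrays, with mean log2 Cy5 signals of 13.90, 13.20 and 14.08, while Bpifa1 was so on 1 and Foxj1 on 0. Of the whole lists, 8 of 11 club cell markers and 7 of 15 ciliated cell markers with a probe were so on most forestomach arrays. Lamp3 had changes of -0.08, -0.17 and -0.38 at D1, D2 and D3 (limma adjusted p = 0.973, 1 and 0.85).

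Sftpd in forestomach split the arrays into a high and a low set. Its log2 ratio was 1.81 in D0 mouse 2 and -0.38 to 0.05 in the other 3 controls. It was 1.81 to 3.73 in all 5 D1 mice, 3.59 and 2.56 in D2 mice 14 and 15 and -0.16 to 0.01 in the other 3, and 2.95 and 1.80 in D3 mice 19 and 20 and -0.11 to 0.12 in the other 3. The D1 change of 2.48 (SE 0.82) did not pass (limma adjusted p = 0.967). A list of gastric gland genes was added after these values were seen: the 10 arrays on which Sftpd was at least 1.80 were also the 10 on which the mean log2 ratio of 9 gastric gland genes was at least 5.24, and on the other 9 arrays these were at most 0.12 and 3.16. The part of glandular tissue in the Sftpd values was not tested further.

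**Figure D5:**
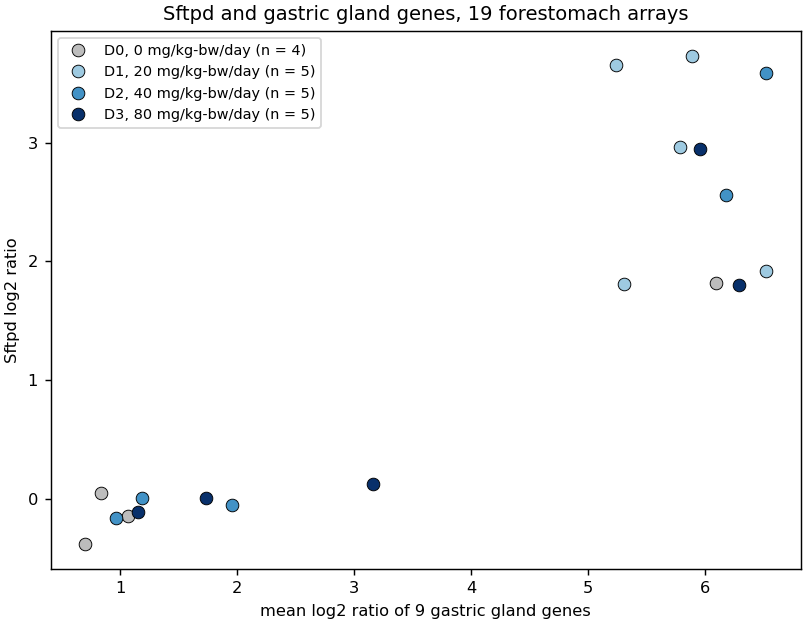
Sftpd log2 ratio (y axis) against the mean log2 ratio of 9 gastric gland genes (x axis) on each of the 19 forestomach arrays, coloured by BaA dose group. The 10 arrays with Sftpd at 1.80 or higher lie at gastric means of 5.24 or higher, and the other 9 arrays lie near 0 for Sftpd and at or below 3.16.

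Differences of the D3 effect between tissues were tested directly. For lung minus liver, 0 of 3 genes passed (2.08% of 21865 probes did), and for lung minus forestomach 0 of 5 (0.26% of 28431 probes). Lamp3 had the largest difference in size of the lung and forestomach effects, 0.68 (SE 0.23; limma adjusted p = 0.283), and 0.66 with mouse as a block (adjusted p = 0.339, limma). That of Scgb1a1 was -0.08 (interval -0.58 to 0.42).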

How the data were processed

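Total RNA of 58 tissue samples was hybridised to 2-colour Agilent 8 × 60K mouse arrays. The deposited intensity files are per-array scanner output of Feature Extraction 10.7.3.1; the median signals used here were not background-corrected, and the deposited log2 ratio table holds the authors' LOWESS-normalized values. Replicates are separate mice. Log2 ratios here were made from the median Cy5 and Cy3 intensity by loess within each array in limma 3.58.1 (R 4.3.3), averaging spots of a probe and leaving out 0.495% of spots as outliers. They correlated with the authors' table at r of 0.995 to 0.998 per array, which settles its scale and direction (Cy5 over Cy3); the medians of the authors' columns were -0.04 to -0.02. No 2 arrays held identical values.

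Probes were named by RefSeq accession (26413 of 55681). A probe entered the limma fit of a tissue if 4 or more of its arrays had Cy5 well above background, with all dose groups in 1 fit, with Benjamini-Hochberg adjustment, since MAANOVA, the study's tool, was not available; the study's criteria (adjusted p of at most 0.05 and 1.5-fold) were kept. The slope is per mg/kg-bw/day. Intervals are 95% moderated t intervals, and the number of arrays limits their precision. Where values of a named gene lay outside the control range, this is a description. The share of all probes with such values was not counted. Named were all members, the 5 genes most like Sftpc, Scgb1a1 and Foxj1, and from each list the genes that passed at D2, D3 or in the slope and the 2 with the largest D3 change; other listed genes named were chosen after their values were seen, and 2 genes that the rule names are not reported here. The members, lists and tests were chosen with earlier results of these data known. Normalized Cy5 folds between tissues used loess and Aquantile over all arrays. The same mice gave the tissues: deviations from the group means of same-mouse lung and liver arrays had a median r of 0.12 (19 mice), and those of lung and forestomach 0.11. The fits were tested on simulated data. The alternatives tried were other normalizations, filters, a slide or mouse block and leaving out each mouse.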

Additional observations from a re-analysis of the deposited data

How the results depend on the processing

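The number of surfactant and airway genes that passed in lung at D1, D2 and D3, in liver and forestomach at D3, and in the differences between tissues was 0 under every alternative run, and 0 throughout when each mouse was left out. The single exception for the lung slope was Cy5 alone on the 75th percentile with slide as a block, added after seeing the data, where 1 gene (Sftpc) passed. With mouse as a replicate block the count was 0 for lung minus liver and 0 for lung minus forestomach, and the block changed no call of these genes.

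The count over all lung probes moved more: at D2 and D3 it was 168 and 571, against 304 and 1041 with Agilent processed signals and 674 and 2777 without the fold criterion, and the slope count rose from 3514 to 6522 with Cy5 on the 75th percentile and slide as a block. Centring each array on its median alone gave 0 at D2, D3 and in the slope and moved the median of all lung probes by up to 0.37, so the calls of Etv5, Hc, Ccdc39 and the B cell genes were lost under it. Leaving out 1 mouse gave 394 to 690 probes at D3. The Lamp3 change at D3 ranged from 0.15 to 0.39 when 1 mouse was left out, being 0.15 without D0 mouse 5, and that of Etv5 from 0.52 to 0.72, under 1.5-fold without D0 mouse 5 or D3 mouse 20. For Hc it ranged from 0.81 to 1.06. Without the arrays of slide 1, Cd79b did not pass at D3 (limma adjusted p = 0.0855). Of the expression values, those near background, such as that of Ccdc39, are limited by signal. For the surfactant and airway genes tested in each tissue, no array lay beyond the critical value for an outlier in any of the 68 combinations of gene, tissue and dose group. That rule compares the most extreme array with the next one. It can therefore miss arrays that lie apart together, as the low D0 arrays of Lamp3 in lung did.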
